A study of Arabidopsis thaliana with 9 samples.

Results

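The autoinhibited calcium pumps (ACAs) of Arabidopsis thaliana are the 10 genes ACA1, ACA2, ACA4, ACA7, ACA8, ACA9, ACA10, ACA11, ACA12 and ACA13. They were selected by gene ID from the 32833 genes listed per library, with earlier results of these data known. Of the 10, 9 were among the 20272 genes with enough reads to be tested. Only ACA7 was not. After 24 h of STZ induction 5 of the 9 pump transcripts passed the test as lower than in mock roots and 2 as higher. Over all tested genes 18% were lower and 17.6% higher. ACA12 showed by far the largest change, 8.67-fold lower. After 6 h only ACA13 passed the test as higher and only ACA1 as lower, beside 13.1% of all tested genes in either direction.

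The roots came from Col-0 seedlings that were 4 to 5 days old and carried p35S::XVE>>pLexA::STZ, in which the 35S promoter drives an estradiol-activated factor that switches on STZ, a C2H2 zinc finger repressor linked to stress responses. There were 3 groups of 3 libraries each, namely estradiol at 20 µM for 24 h, estradiol at 20 µM for 6 h, and mock, which was the ethanol solvent for 24 h. All groups carried the transgene and came from 1 transgenic line, STZ-OE #2. No estradiol-treated plants without the transgene were analysed here, so an effect of estradiol itself cannot be told apart from that of STZ, and the 6 h libraries were set against a mock treatment of another duration. The sources differ on how much of the root was dissected. STZ itself checked the labels. It stood at 9580 to 12562 CPM (reads scaled to a common library total) at 24 h, 1015 to 1277 CPM at 6 h and 18.8 to 29.8 CPM in mock.

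Each library held 24375822 to 31299634 exon reads. All 5 root markers were detected in every library. For the marker counts below, 17.6% of all tested genes passed as higher and 18% as lower at 24 h against mock. At 6 h against mock the shares were 5.43% and 7.71%. Summed markers of photosynthetic tissue reached 37.4 to 43.4 CPM at 24 h and 40.6 to 45.4 CPM at 6 h, against 173 to 181 CPM in mock, and all 5 of these that could be tested fell at both times. Summed root hair markers stood at 341 to 485 CPM at 24 h, 627 to 958 CPM at 6 h and 361 to 487 CPM in mock. Of these 5, 2 were higher at 6 h against mock and 3 lower at 24 h against 6 h. Endodermis markers summed to 328 to 547 CPM at 24 h, 350 to 549 CPM at 6 h and 402 to 455 CPM in mock. Of these, 1 of 5 was higher at 24 h against mock. Summed xylem markers stood at 533 to 633 CPM at 24 h, 472 to 539 CPM at 6 h and 399 to 425 CPM in mock, with 2 of 5 higher at 24 h and 1 at 6 h against mock. Phloem markers summed to 109 to 114 CPM at 24 h, 142 to 167 CPM at 6 h and 105 to 121 CPM in mock, with 2 of 5 higher at 6 h and 1 lower at 24 h. Of 4 root cap markers only BRN1 rose at 24 h against mock, and of 5 root markers only SCR. The medians of these lists were -0.05 and -0.14 on the log2 scale. At an unadjusted p under 0.05 in edgeR, 1 root cap marker and 2 root markers were lower. The 5 pollen markers, of interest because ACA7 and ACA9 are known from pollen, summed to 6.71 to 8.07 CPM at 24 h, 5.50 to 6.41 CPM at 6 h and 6.96 to 7.73 CPM in mock, most of it ANX1, and VGD1, ANX2, RALF4 and RALF19 were all at 0 in mock. RALF19 rose at 24 h, with 11, 15 and 20 reads at 24 h, 1, 5 and 4 reads at 6 h and 0 in every mock library. The part of these tissue differences in the pump values was not tested. In bulk roots, fewer cells of a type and less RNA per cell cannot be told apart.

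ACAs are P-type ATPases that use ATP to move calcium out of the cytosol. In the typical pump of this family, an N-terminal domain holds activity in check until calmodulin, loaded with calcium, binds it. Such pumps speed up when cytosolic calcium is high and return it to rest after a signal. Whether each member is regulated in this way was not measured here. The family is spread over membranes. ACA8, ACA9, ACA10, ACA12 and ACA13 are placed at the plasma membrane, ACA4 and ACA11 at the vacuolar membrane, and ACA2 in the endoplasmic reticulum (ER). ACA1 has been placed in the plastid envelope and in the ER, and ACA7, known from pollen, is less well placed.

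The gene models also separate the family. In the RefSeq annotation of TAIR10.1, ACA12 and ACA13 have 1 exon each, ACA2, ACA7 and ACA11 have 7 coding exons, and ACA8 and ACA10 have 34, with 32 in ACA9. Their longest coding sequences nevertheless span only 1014 codons in ACA2 to 1086 in ACA9. ACA1 lies on the same chromosome as STZ, 22.31 kb away, with 3 annotated genes lying wholly between them. SAT32, which overlaps ACA1 by 26 bases, is not among these 3.

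Stretches of 250 bases directly upstream of the annotated starts were searched for the repeat that STZ binds in vitro, which was written on either strand as ACTNNNACT, AGTNNNACT or ACTNNNAGT, or the same with 1 further base (N) between the outer triplets. It occurred in 3 of the 10 pump genes, with 3 matches in ACA1 and 1 each in ACA4 and ACA11, beside 36.9% of all 27443 such windows in the genome. These 3 are printed here, with the matches in capitals, together with the windows of ACA12 and ACA13, the members with the largest changes, which held no match. All read 5′ to 3′ on the strand of the gene, from RefSeq (TAIR10.1).
ACA1, chr1:9676308-9676557, minus strand: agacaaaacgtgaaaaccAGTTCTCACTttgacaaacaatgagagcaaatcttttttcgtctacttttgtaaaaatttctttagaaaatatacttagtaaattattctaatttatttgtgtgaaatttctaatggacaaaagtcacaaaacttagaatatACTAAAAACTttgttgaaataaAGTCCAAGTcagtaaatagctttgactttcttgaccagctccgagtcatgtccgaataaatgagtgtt
ACA4, chr2:17337493-17337742, minus strand: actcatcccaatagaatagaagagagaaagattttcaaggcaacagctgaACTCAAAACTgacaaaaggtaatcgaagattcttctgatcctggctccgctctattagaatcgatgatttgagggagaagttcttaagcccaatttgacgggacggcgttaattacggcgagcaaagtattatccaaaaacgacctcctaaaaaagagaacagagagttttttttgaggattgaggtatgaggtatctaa
ACA11, chr3:21216837-21217086, minus strand: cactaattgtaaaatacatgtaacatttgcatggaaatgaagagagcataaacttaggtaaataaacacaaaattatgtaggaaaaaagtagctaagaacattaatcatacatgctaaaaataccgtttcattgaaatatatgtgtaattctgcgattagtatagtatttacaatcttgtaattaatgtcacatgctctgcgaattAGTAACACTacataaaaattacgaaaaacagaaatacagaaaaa
ACA12, chr3:23410361-23410610, minus strand: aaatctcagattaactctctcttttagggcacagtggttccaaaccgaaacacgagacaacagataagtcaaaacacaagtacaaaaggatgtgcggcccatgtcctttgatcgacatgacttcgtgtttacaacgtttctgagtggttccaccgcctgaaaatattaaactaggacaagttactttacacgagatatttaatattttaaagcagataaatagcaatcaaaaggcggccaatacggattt
ACA13, chr3:8119491-8119740, minus strand: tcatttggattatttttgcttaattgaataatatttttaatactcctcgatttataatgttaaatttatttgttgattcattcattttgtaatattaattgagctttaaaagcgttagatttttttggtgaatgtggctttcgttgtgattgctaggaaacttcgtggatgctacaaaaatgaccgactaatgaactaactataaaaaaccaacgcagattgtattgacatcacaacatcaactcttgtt

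Further stress-linked motifs were searched in the same windows. The CAMTA box (ACGCGT or CCGCGT), bound by calmodulin-binding transcription factors, occurred in 1 of the 10 windows, that of ACA2, beside 3.4% of all windows. The W-box (TTGACC or TTGACT), bound by WRKY factors, occurred in 3 of 10, those of ACA1, ACA7 and ACA12, beside 28.4% of all windows. The ABRE core (ACGTG), a site for abscisic acid response factors, occurred in ACA1, beside 22.9%. Matches are letters only, and binding was not measured here.

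A transcript was called changed at an adjusted p under 0.01 and at least 1.5-fold, in edgeR's quasi-likelihood test with Benjamini-Hochberg adjustment over all tested genes. At 24 h against mock, 7 of the 9 pumps were called, 2 higher and 5 lower, beside 35.5% of all tested genes (17.6% higher and 18% lower). At 6 h against mock, 2 of 9 were called, 1 higher and 1 lower, beside 13.1% of all tested genes (5.43% higher and 7.71% lower). At 24 h against 6 h, 4 of 9 were called, all lower, beside 24.6% of all tested genes (14.1% higher and 10.5% lower). The 2 pumps higher there at an unadjusted p under 0.05 (ACA2 and ACA9) were called by neither edgeR, DESeq2 nor limma-voom. With an adjusted p under 0.05 and no limit on the fold, 9 of 9 pumps passed at 24 h against mock (65.3% of all tested genes), 7 of 9 at 6 h against mock (37.7%) and 8 of 9 between the times (57%). The median log2 change of the pumps was -0.60 at 24 h against mock (-0.01 over all tested genes), 0.40 at 6 h against mock (0.00) and -0.40 between the times (-0.02). Both comparisons with mock share the same mock libraries.

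**Figure D1:**
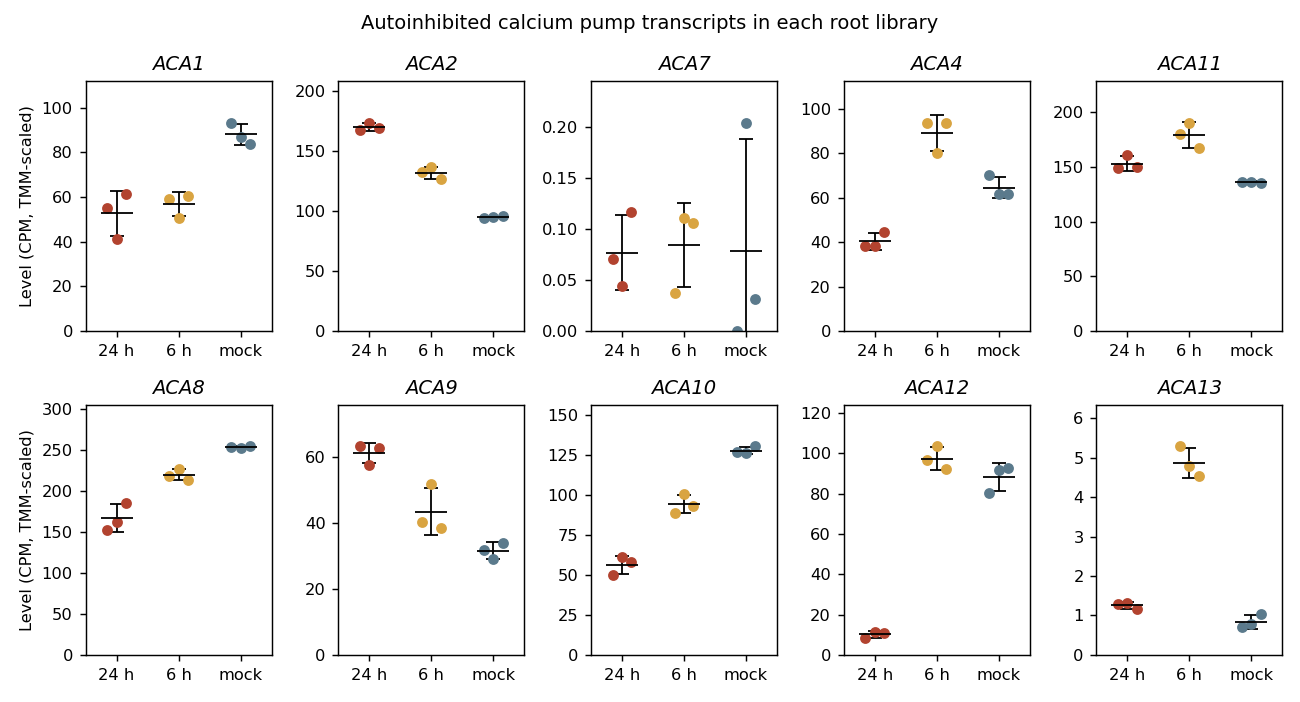
Level of each of the 10 ACA transcripts (CPM, scaled by TMM factors) in each library at 24 h, 6 h and mock. Points are libraries, and horizontal and vertical lines are the mean ± SD (n = 3, cut at 0 for ACA7). ACA12 sits at 8.35 to 11.5 CPM in the 24 h libraries, below every library of the other groups, and ACA13 peaks at 6 h.

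ACA12 (AT3G63380, chr3:23406484-23410360, minus strand), a plasma membrane pump, carried the largest change in the family. It stood at 8.35, 11.5 and 10.8 CPM in the 24 h libraries, at 96.7, 103 and 92.0 CPM in the 6 h libraries, and at 80.2, 91.8 and 92.8 CPM in mock. The 24 h libraries lay far below all others, whereas 6 h and mock overlapped. ACA12 fell by 3.12 on the log2 scale at 24 h against mock (SE 0.11, edgeR adjusted p = 1.29e-09), and only 0.197% of tested genes had a lower value in that comparison. Against 6 h it fell by 3.26 (SE 0.11, adjusted p = 1.62e-09), or 9.56-fold. At 6 h against mock its log2 change of 0.14 missed the threshold (95% interval -0.07 to 0.35, adjusted p = 0.275). It was the one tested member whose 6 h and mock libraries overlapped.

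ACA13 (AT3G22910, chr3:8116292-8119490, minus strand), the closest relative of ACA12 and likewise without introns, had another time course. It was scarce, with 37, 30 and 30 reads in the 24 h libraries, 142, 130 and 129 reads at 6 h, and 19, 23 and 33 reads in mock. Scaled by depth, these were 1.3, 1.32 and 1.16 CPM at 24 h, 5.29, 4.79 and 4.55 CPM at 6 h, and 0.70, 0.78 and 1.04 CPM in mock. All 6 h libraries exceeded all others. It rose 5.73-fold at 6 h against mock (log2 2.52, SE 0.18, edgeR adjusted p = 1.55e-06). It fell by 1.95 on the log2 scale at 24 h against 6 h (SE 0.17, adjusted p = 2.34e-06). At 24 h against mock, all 3 libraries still exceeded all mock libraries, but the log2 change of 0.57 was not called (SE 0.21, adjusted p = 0.0306).

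ACA10 (AT4G29900, chr4:14610883-14619685, minus strand) and ACA8 (AT5G57110, chr5:23109438-23117686, minus strand) are the widely expressed plasma membrane pumps, known to act beside immune receptors. ACA10 stood at 50.1, 61.3 and 57.9 CPM at 24 h, 89.1, 100.5 and 93.4 CPM at 6 h, and 127, 126 and 131 CPM in mock. The groups formed 3 separate steps. ACA10 fell by 1.18 on the log2 scale at 24 h against mock (SE 0.08, edgeR adjusted p = 1.41e-07) and by 0.74 at 24 h against 6 h (SE 0.08, adjusted p = 1.07e-05). At 6 h against mock its log2 change of -0.44 was 1.36-fold and so was not called, although its adjusted p was 0.00108.

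ACA8 stood at 152, 163 and 185 CPM at 24 h, 219, 227 and 214 CPM at 6 h, and 254, 252 and 254 CPM in mock. Its order was that of ACA10, with smaller steps. ACA8 fell 1.52-fold at 24 h against mock (log2 -0.60, SE 0.08, edgeR adjusted p = 2.32e-05), just past the fold limit. The call was lost, at log2 changes of -0.54, -0.58 and -0.58, without 24 h replicate 1, 6 h replicate 2 or mock replicate 2, and at -0.57 in a fit of the 24 h and mock libraries only. Its log2 change was -0.20 at 6 h against mock (adjusted p = 0.0533) and -0.40 at 24 h against 6 h (adjusted p = 0.000871), neither called.

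ACA9 (AT3G21180, chr3:7425476-7432365, plus strand), the plasma membrane pump needed for pollen tube growth, went the other way. It stood at 63.1, 57.6 and 62.7 CPM at 24 h, 40.1, 51.6 and 38.5 CPM at 6 h, and 31.8, 29.0 and 33.9 CPM in mock. No group overlapped with another, and 6 h replicate 2 stood apart from the other 6 h libraries. ACA9 rose 1.94-fold at 24 h against mock (log2 0.95, SE 0.11, edgeR adjusted p = 7.7e-06). Its log2 change was 0.46 at 6 h against mock (adjusted p = 0.00536) and 0.49 at 24 h against 6 h (adjusted p = 0.00169), and neither reached 1.5-fold. Without 6 h replicate 2 the last value was 0.65 and was called (adjusted p = 0.000122).

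**Figure D2:**
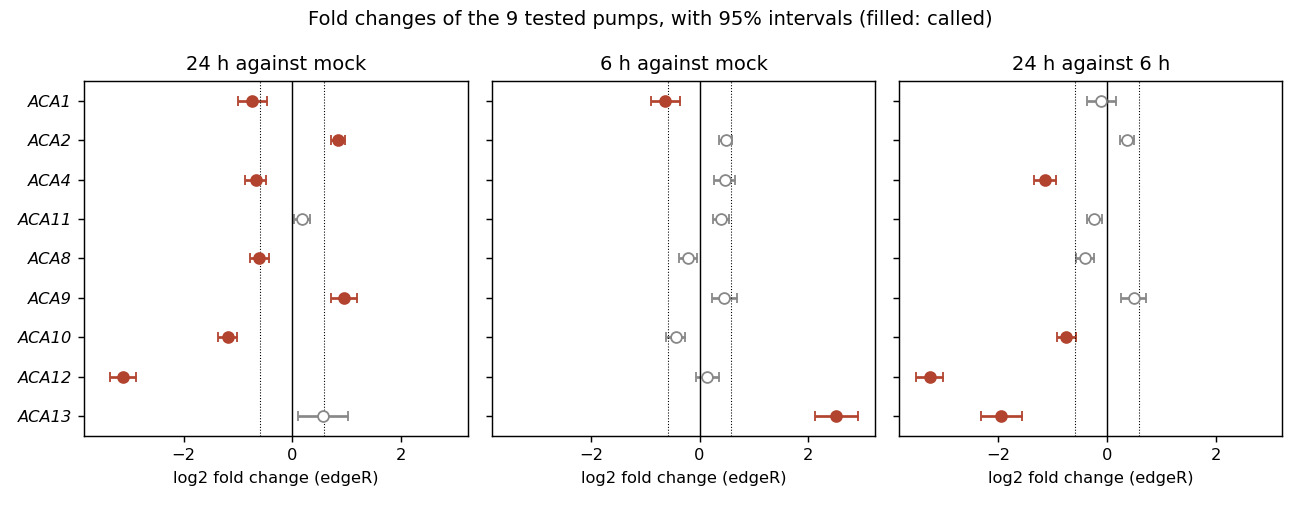
log2 fold changes of the 9 tested pumps from edgeR, in 1 panel each for 24 h against mock, 6 h against mock and the 24 h libraries against those of 6 h. Bars are 95% intervals, dotted lines mark 1.5-fold, and filled points were called. At 24 h against mock the values run from -3.12 for ACA12 to 0.95 for ACA9.

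ACA2 (AT4G37640, chr4:17682859-17687105, minus strand), the ER pump, was the other transcript that rose at 24 h against mock. It stood at 167, 174 and 169 CPM at 24 h, 132, 137 and 127 CPM at 6 h, and 94.1, 94.7 and 95.5 CPM in mock. These 3 groups were wide apart relative to their spread. ACA2 rose 1.79-fold at 24 h against mock (log2 0.84, SE 0.06, edgeR adjusted p = 1.83e-07). At 6 h the difference from mock was 1.39-fold (log2 0.48, adjusted p = 8.42e-05), which is under the fold limit.

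ACA1 (AT1G27770, chr1:9671632-9676307, minus strand) was lower at both times. It stood at 55.2, 41.4 and 61.4 CPM at 24 h, 58.9, 50.6 and 60.7 CPM at 6 h, and 93.2, 86.9 and 83.9 CPM in mock. The induced groups overlapped with each other and lay below all mock libraries. ACA1 fell by 0.74 on the log2 scale at 24 h (SE 0.12, edgeR adjusted p = 0.000194) and by 0.63 at 6 h (SE 0.12, adjusted p = 0.00173). The 6 h call was lost without 6 h replicate 2 (-0.54, adjusted p = 0.013) or mock replicate 2 (-0.63, adjusted p = 0.0118). Between 24 h and 6 h its log2 difference was -0.11 (95% interval -0.37 to 0.16, adjusted p = 0.484). ACA7 (AT2G22950, chr2:9766058-9769957, plus strand), known from pollen, had 6 reads at 24 h, 7 at 6 h and 7 in mock over the 3 libraries of each group, too few for a test.

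ACA4 (AT2G41560, chr2:17332050-17337492, minus strand) and ACA11 (AT3G57330, chr3:21211014-21216836, minus strand) are the paired vacuolar pumps, whose joint loss is known to cause spontaneous leaf lesions. ACA4 stood at 38.3, 38.2 and 44.8 CPM at 24 h, 93.6, 80.0 and 93.7 CPM at 6 h, and 70.1, 61.8 and 61.8 CPM in mock. Its 6 h libraries were the highest and its 24 h libraries the lowest. ACA4 fell by 0.68 on the log2 scale at 24 h against mock (SE 0.09, edgeR adjusted p = 3.44e-05) and by 1.14 at 24 h against 6 h (SE 0.09, adjusted p = 9.21e-07). Its log2 change of 0.46 at 6 h against mock was 1.38-fold and not called (adjusted p = 0.00161).

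ACA11 was the tested member that passed in no comparison. It stood at 148, 161 and 149 CPM at 24 h, 179, 190.0 and 167 CPM at 6 h, and 136, 136 and 135 CPM in mock. Its log2 changes were 0.17 at 24 h against mock (adjusted p = 0.0419), 0.40 at 6 h against mock (edgeR adjusted p = 0.000767) and -0.23 at 24 h against 6 h (adjusted p = 0.0127), all below 1.5-fold. The group mean was highest at 6 h in ACA4, ACA11, ACA12 and ACA13, and of these only ACA13 was called at 6 h against mock.

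Libraries of 2 groups often separated without a call. At 24 h against mock the libraries of all 9 tested pumps did not overlap, beside 70% of all tested genes. At 6 h against mock this held for 8 of 9, beside 55.7%, and at 24 h against 6 h for 8 of 9, beside 60.4%. The exceptions were ACA12 at 6 h against mock and ACA1 between the times.

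Levels of different pumps were compared per length, as RPKM, in which reads are scaled by exon length and by library total. At 24 h the order began with ACA2 at 42.6 RPKM and ACA8 at 39.1 RPKM, whose libraries overlapped, followed by ACA11 at 31.2 RPKM. ACA9 (14.3 RPKM), ACA1 (13.3 RPKM) and ACA10 (12.2 RPKM) overlapped in turn, and ACA4 (7.55 RPKM), ACA12 (2.45 RPKM), ACA13 (0.37 RPKM) and ACA7 (0.02 RPKM) followed as separate steps. At 6 h ACA8 led at 53.4 RPKM, then ACA11 at 37.8, ACA2 at 34.3, ACA12 at 24.2 and ACA10 at 21.2 RPKM, each separate from the next. ACA4 (17.2 RPKM) and ACA1 (14.7 RPKM) overlapped there, above ACA9 (10.5 RPKM) and ACA13 (1.47 RPKM).

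In mock ACA8 led at 62.6 RPKM. ACA11 and ACA10 overlapped at 29.2 RPKM each, ACA2 stood at 25.1 RPKM, and ACA1 (23.2 RPKM) overlapped with ACA12 (22.3 RPKM). ACA4 at 12.7 RPKM, ACA9 at 7.78 RPKM and ACA13 at 0.26 RPKM were lower. ACA2 thus held rank 1 at 24 h and rank 4 in mock, and ACA12 held rank 8 at 24 h and rank 6 in mock.

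The summed level of the 10 pumps was 163 ± 11.8 RPKM at 24 h, 215 ± 3.17 RPKM at 6 h and 212 ± 1.90 RPKM in mock (SD, n = 3 each). The plasma membrane pumps made up 41.9 ± 1.31% of that sum at 24 h, 51.5 ± 1.22% at 6 h and 57.5 ± 1.02% in mock. ACA1, ACA2 and ACA7 together held 34.3 ± 1.14% at 24 h, 22.8 ± 0.76% at 6 h and 22.8 ± 0.53% in mock. The vacuolar pair held 23.8 ± 0.94% at 24 h, 25.6 ± 0.53% at 6 h and 19.7 ± 0.50% in mock. Without ACA12 the sum was 161 ± 11.6 RPKM at 24 h, 191 ± 2.44 RPKM at 6 h and 190.1 ± 3.48 RPKM in mock. These sums and shares are descriptions, and shares of 1 total move together.

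**Figure D3:**
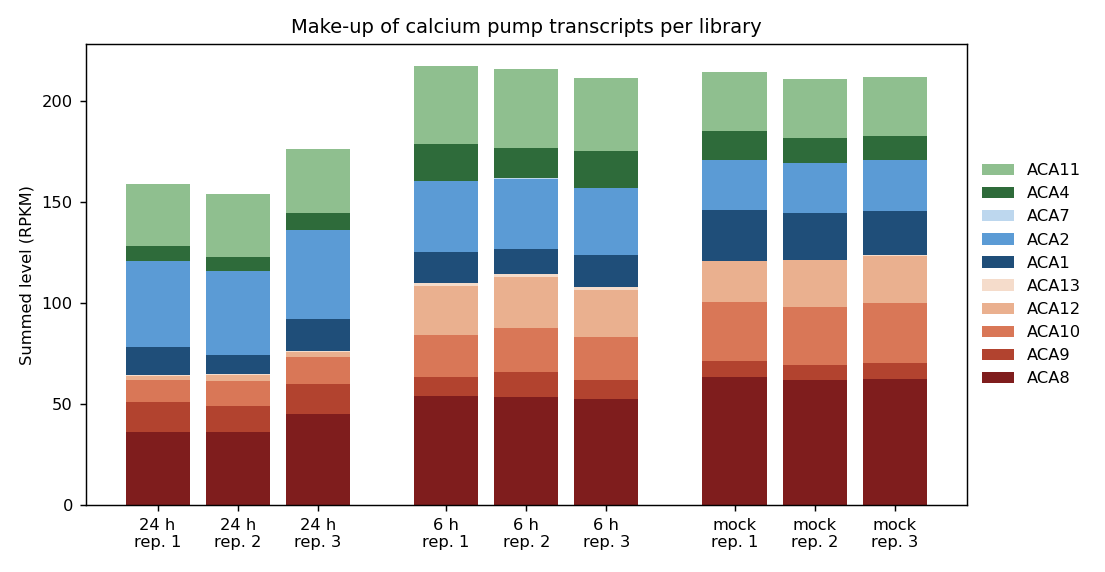
Summed level (RPKM) of the 10 pumps in each library at 24 h, 6 h and mock, split by gene, with plasma membrane pumps in reds at the base, ACA1, ACA2 and ACA7 in blues and the vacuolar pumps in greens at the top. The 24 h libraries sum to 154 to 176 RPKM, below every 6 h (211 to 217 RPKM) and mock (211 to 215 RPKM) library.

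Some pump genes overlap a neighbour on the opposite strand, and whether reads were counted by strand is not known from the sources used here. ACA1 overlaps SAT32 by 26 bases, and SAT32 rose at 24 h against mock (log2 0.99) while ACA1 fell. ACA9 overlaps MSR1 by 173 bases, and MSR1 fell by 0.88 on the log2 scale while ACA9 rose. ACA10 overlaps AT4G29890 by 116 bases (mean 10.7 CPM at 24 h, 9.47 CPM at 6 h and 15.8 CPM in mock). AT4G29890 fell by 0.73 on the log2 scale at 6 h against mock, where the change of ACA10 was -0.44 and not called. At 24 h against mock the change of AT4G29890 was -0.56 and not called, while ACA10 fell by 1.18. ACA10 also overlaps the noncoding RNA genes AT4G08245 by 1006 bases and AT4G08255 by 214 bases, both listed with 0 reads and an exon length of 0 in every library. ACA11 overlaps AT3G57320 by 432 bases (10.6 CPM at 24 h, 6.76 CPM at 6 h and 7.57 CPM in mock). Of the 208306 reads counted for the members, 7 were not uniquely mapped, all in ACA11.

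Likeness of pattern was measured as the root mean square difference of centred log2 CPM over the 9 libraries, among 8686 expressed genes with a symbol. Nearest to ACA9, the called member with the largest rise at 24 h, were PTEN2B (0.06), IP5P5 (0.09) and MDIS2 (0.09), against a median distance of 0.46. PTEN2B encodes a lipid and protein phosphatase, IP5P5 an inositol polyphosphate phosphatase and MDIS2 a receptor kinase. Nearest to ACA12 were DTX20 (0.26), CYP71A19 (0.31) and PP2A8 (0.34), against a median of 1.5. Their log2 changes at 24 h against mock were -2.90, -2.82 and -2.73.

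The pumps act beside channels that admit calcium, exchangers that clear it and sensors that read it. Over 11 further lists with 139 genes, 126 of them tested, 50 were called at 24 h against mock, 26 higher and 24 lower (39.7%, beside 35.5% of all tested genes). At 6 h against mock 19 were called, 9 higher and 10 lower (15.1%, beside 13.1%), and at 24 h against 6 h 35 were called, 19 higher and 16 lower (27.8%, beside 24.6%). The median log2 change over these genes was -0.02 at 24 h against mock. The other pump class, the ER-type calcium pumps ECA1 to ECA4, which lack the calmodulin-regulated domain, had 0 of 4 called at 24 h or 6 h against mock or between the times, with log2 changes of -0.33 for ECA3 (adjusted p = 0.00139) to 0.25 for ECA2 (adjusted p = 0.0104) at 24 h. At an unadjusted p under 0.05, edgeR gave 2 ECA genes higher and 1 lower at 24 h against mock, 2 higher and 0 lower at 6 h against mock, and 0 higher and 1 lower between the times, and DESeq2 and limma-voom also called 0.

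Calcium can also leave the cytosol through exchangers driven by proton gradients. Of 11 tested cation/calcium exchangers, 2 rose and 2 fell at 24 h against mock, beside 17.6% of all tested genes higher and 18% lower. CAX4 rose by 1.79 on the log2 scale and CCX3 by 2.31, whereas CAX1 and CAX3 fell by 0.64 and 1.00. Which cation each of these exchangers moves was not measured here. The plasma membrane proton pumps, P-type relatives that energize that membrane, had 1 of 10 higher and 2 lower. AHA2, the main root isoform, averaged 876 CPM at 24 h and 3051 CPM in mock and fell by 1.80 on the log2 scale (SE 0.11, edgeR adjusted p = 5.71e-08). AHA4 fell by 1.15, and AHA9, at 2.44 CPM at 24 h and 0.20 CPM in mock, rose by 3.63.

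Calls among channels and sensors fell in both directions at 24 h against mock. Over all tested genes 17.6% were called higher there and 18% lower, and the counts of these lists are descriptions. Of 17 tested cyclic nucleotide-gated channels, 3 rose and 6 fell, with CNGC10 and CNGC18 at 2.2 each, CNGC17 at -1.35 and CNGC3 at -2.58 on the log2 scale. Of 16 glutamate receptor-like channels, 4 rose and 4 fell, with GLR2.1 at 2.29 and GLR3.4 at -1.55. Calmodulins, the activators of typical ACAs, had 1 of 7 called higher, CAM2 at 0.72, and 0 lower. At an unadjusted p under 0.05 in edgeR 6 of the 7 were higher and 1 lower, and the list median was 0.36. Calmodulin-like proteins had 4 of 19 higher (CML46 at 3.00) and 4 lower (CML43 at -1.70). The calcineurin B-like sensors had 3 of 9 higher, with CBL8 at 2.92, and 0 lower (2 lower at an unadjusted p under 0.05 in edgeR, 0 by DESeq2 or limma-voom). Among 21 calcium-dependent and CBL-interacting kinases 6 rose and 3 fell, with CPK16 at 3.33 and CIPK21 at -1.22. The remaining channels had 1 of 6 higher (MCA1 at 0.72) and 2 lower, with OSCA1.1 at -1.03 and a list median of -0.78. The annexins had 1 of 6 higher and 1 lower.

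**Figure D4:**
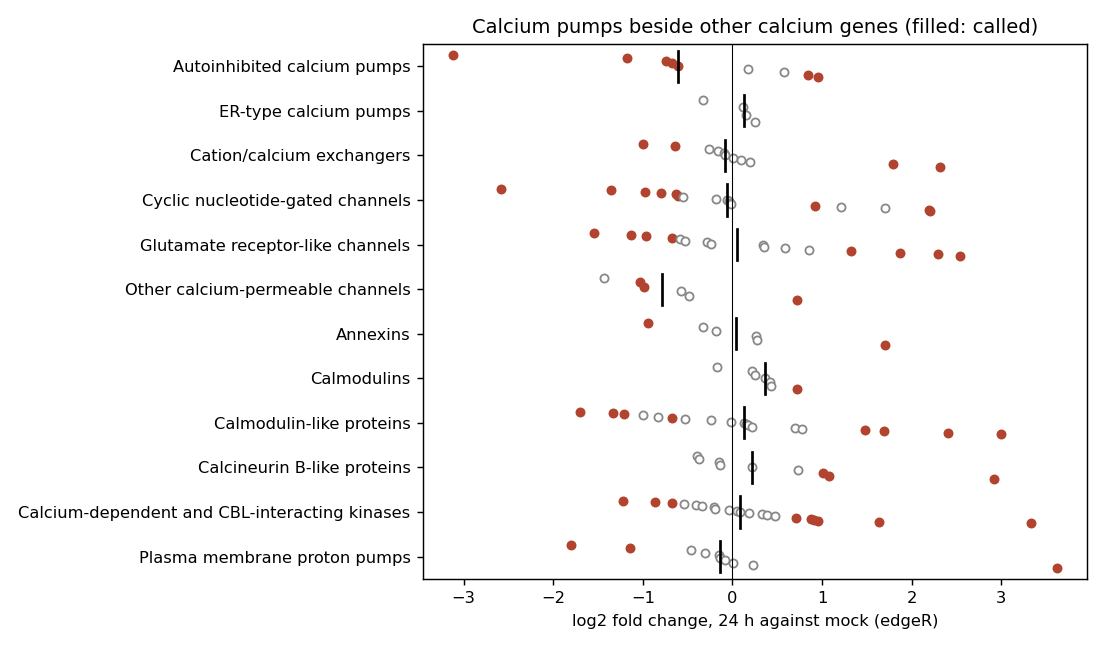
log2 fold change at 24 h against mock for every tested gene of the pump family and of 11 related lists. Each point is a gene, filled where called, and vertical bars are list medians. The pump median of -0.60 lies left of the ER-type pump median of 0.13 and right of that of the other calcium-permeable channels, -0.78. ACA12 at -3.12 is the lowest point drawn.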

How the data were processed

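Poly(A) RNA of 9 root libraries was sequenced as read pairs with a stranded kit. Trimmed reads were mapped to TAIR10 by the authors, who deposited, per gene, raw counts of all and of unique exon reads, RPKM (reads scaled by exon length and library total) and TPM. Total exon counts were tested here in 1 fit of all libraries with edgeR 4.0.16 (R 4.3.3), using TMM factors (0.930 to 1.038) and filterByExpr, which kept 20272 genes. Genes were called at an adjusted p under 0.01 and at least 1.5-fold. The deposited RPKM values were used to compare levels between genes, and the deposited TPM values only as an alternative. The fit was tested on simulated data.

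Libraries are labelled as biological replicates, without mention of separate cultures, and p-values thus reflect only how these samples vary, in part perhaps for technical reasons. No 2 libraries of a group agreed within sampling noise (chi-square per gene 3.09 to 23.5). Deviations from the group means correlated at 0.15 to 0.33 between same-numbered 24 h and 6 h libraries, so these may be paired. Not every same-numbered pair with mock passed 0.1, and 6 h replicate 2 and mock replicate 3 correlated at 0.19. The main fit had no block, so the p-values of 24 h against 6 h leave such pairing out. Gene positions and upstream windows came from RefSeq TAIR10.1, which shares its nuclear assembly with TAIR10. The files hold no coordinates, and they write ACA1, ACA4 and ACA7 with a suffix. Members and lists were chosen with earlier results of these data known. Named were STZ, all members, up to 4 genes per list by smallest p at 24 h against mock with called genes first, and the 3 nearest in profile to the called members with the largest rise and fall at 24 h. The neighbours overlapping pump genes were named in addition. Alternatives covered scaling, filters, DESeq2 1.42.0, limma 3.58.1 (voom and log2 RPKM), the libraries fitted, a replicate block, unique reads, thresholds and leaving out each library.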

Additional observations from a re-analysis of the deposited data

Results flagged for a closer look

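For 4 pumps the change against mock at 24 h differed from that at 6 h by the direct test of 24 h against 6 h in edgeR's quasi-likelihood fit. Over all tested genes 24.6% were called in that comparison, 10.5% as lower. The log2 difference was -3.258 for ACA12, -1.946 for ACA13, -1.141 for ACA4 and -0.743 for ACA10, each lower in 3 of 3 libraries at 24 h than in every library at 6 h. Libraries of these 2 groups did not overlap for 60.4% of all tested genes. ACA4 stood above all mock libraries at 6 h, with a change that was not called, and below all of them at 24 h. ACA13 stood above all mock libraries in CPM at both times, with a change that was called at 6 h and not at 24 h.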

How the results depend on the processing

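Of 621 log2 values of members under 14 alternatives and 9 left-out libraries, 602 kept their direction and side of the threshold, 6 lost a call, 12 gained one and 1 turned its sign. The last was ACA1 at 24 h against 6 h, never called, at -0.23 to 0.039 over left-out libraries. Dropping the fold limit, with an adjusted p under 0.05, gave 7 pumps at 6 h against mock and 8 at 24 h against 6 h. Of the 126 tested genes of the other lists it gave 82 at 24 h against mock, 60 at 6 h against mock and 81 between the times. Over all tested genes the shares were 65.3%, 37.7% and 57% in the same order. Leaving out 1 library gave 1 to 2 pumps called at 6 h against mock. Scaling, filter, DESeq2, limma-voom, RPKM and unique reads left every count of called pumps as it was, and a fit of only the compared groups gave 6 in place of 7 at 24 h against mock. With a replicate block 7 pumps were called at 24 h against mock, 2 at 6 h against mock and 4 between the times, the counts found without the block, and the block changed no other call of a pump.

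Upper-quartile scaling moved the median of all genes by -0.112 at 24 h against mock and -0.101 at 24 h against 6 h, and the share of higher calls at 24 h against 6 h to 44.6%, against 57.3%. The directions of all called pumps held under it. On log2(RPKM + 1), which understates changes of low genes, the 6 h change of ACA13 was 0.97. Depth limits ACA7, at 0 to 6 reads per library, whose changes were not detectable, and leaves ACA13 resting on 19 to 142 reads per library.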
